A study of Mus musculus with 12 samples.

Results

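The genes described here are those of prostanoid production and sensing on the inflammation panel: Pla2g4a, Ptgs1 and Ptgs2, which encode enzymes, and Ptger1, Ptger2, Ptger3, Ptger4, Ptgfr, Ptgir and Tbxa2r, which encode receptors. They were taken by gene symbol, with no use of measured values, and all 10 were found among the 248 inflammation-related genes of the table. Nanostring hybridisation, which counts colour-coded probes bound to single mRNA molecules without amplification, was applied to 6 blood monocyte (MNC) samples and to 6 samples of Kupffer cells (KCs), macrophages that reside in the liver. All mice were of the Balb/C strain, with no treatment, time point, age or genotype given in the labels. Each sample was a pool, of cells from 5 mice per the labels and of 4 to 5 per the methods, with 100 ng of total RNA used per reaction. Monocytes came from the mononuclear fraction of blood and Kupffer cells from the non-parenchymal fraction of livers digested with collagenases, and F4/80, a macrophage surface protein, served for the magnetic sort of both. The digestion belonged to 1 cell type only, so its part in any difference cannot be told apart from that of the cell type.

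Prostanoids are short-lived lipid mediators made from arachidonic acid. Cytosolic phospholipase A2, the product of Pla2g4a, releases arachidonic acid from membranes, and the cyclooxygenases COX-1 (Ptgs1, often called constitutive) and COX-2 (Ptgs2, induced by cytokines, bacterial products and stress) turn it into prostaglandin H2, from which the separate prostaglandins, prostacyclin and thromboxane are formed. Each then acts on G protein-coupled receptors of nearby cells: prostaglandin E2 on EP1 to EP4 (Ptger1 to Ptger4), prostaglandin F2α on FP (Ptgfr), prostacyclin on IP (Ptgir) and thromboxane on TP (Tbxa2r). In macrophages, EP2, EP4 and IP signal through Gs and cyclic AMP and are known to restrain the production of TNF, while in the liver Kupffer cells are a known source of prostaglandins acting on hepatocytes and vessels.

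COX-1 and COX-2 catalyse the same reaction but are known for different control. EP4 and IP went opposite ways below as deposited, though both were lower in Kupffer cells with positive controls only. The promoter windows of these 4 genes are therefore shown. They are the RefSeq windows on GRCm38.p6, which run 5′ to 3′ from 250 bases before to 50 bases after a transcription start. Capitals mark matches to 5 short motifs on either strand: the C/EBP palindrome TTGCGCAA, the CRE core CGTCA or TGACG, the E-box CACGTG, the TATA box TATAAA or TTTATA, and the GC box GGGCGG or CCGCCC.
Ptgs1, chr2:36230176-36230475, plus strand: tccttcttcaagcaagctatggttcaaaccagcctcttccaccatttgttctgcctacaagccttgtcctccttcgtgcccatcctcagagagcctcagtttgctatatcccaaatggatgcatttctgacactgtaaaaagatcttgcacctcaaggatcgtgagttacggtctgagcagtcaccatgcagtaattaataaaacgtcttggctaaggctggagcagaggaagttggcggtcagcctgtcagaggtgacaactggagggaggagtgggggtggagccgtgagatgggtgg
Ptgs2, chr1:150099781-150100080, plus strand: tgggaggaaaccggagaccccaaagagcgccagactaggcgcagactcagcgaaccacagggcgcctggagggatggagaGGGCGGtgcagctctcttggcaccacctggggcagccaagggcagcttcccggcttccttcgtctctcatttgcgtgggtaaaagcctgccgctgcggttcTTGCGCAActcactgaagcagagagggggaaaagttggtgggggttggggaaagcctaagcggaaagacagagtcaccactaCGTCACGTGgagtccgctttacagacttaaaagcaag
Ptger4, chr15:5244138-5244437, minus strand: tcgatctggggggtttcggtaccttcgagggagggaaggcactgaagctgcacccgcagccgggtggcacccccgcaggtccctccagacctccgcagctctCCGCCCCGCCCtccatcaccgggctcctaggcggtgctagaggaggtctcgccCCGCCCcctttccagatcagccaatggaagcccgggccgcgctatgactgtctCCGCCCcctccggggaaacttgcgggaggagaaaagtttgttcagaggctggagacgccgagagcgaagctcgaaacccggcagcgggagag
Ptgir, chr7:16906240-16906539, plus strand: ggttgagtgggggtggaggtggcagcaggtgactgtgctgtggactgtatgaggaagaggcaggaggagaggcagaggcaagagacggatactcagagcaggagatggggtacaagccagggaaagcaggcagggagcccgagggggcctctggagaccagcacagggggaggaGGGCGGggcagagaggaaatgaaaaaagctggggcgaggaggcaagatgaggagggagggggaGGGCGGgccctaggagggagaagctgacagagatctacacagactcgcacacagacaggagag

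The Ptgs2 window held 1 match each to the C/EBP palindrome, the CRE core, the E-box and the GC box, the CRE core and the E-box overlapping in the run CGTCACGTG. The Ptgs1 window held no match to any of the 5. It surrounds a start inside the gene (chr2:36216742-36258593), and the 5′ end of that span was not searched. The Ptger4 window held 4 GC boxes, of which the first 2 overlap, and the Ptgir window held 2. Of 32851 RefSeq windows of the same length, 0.183% held the C/EBP palindrome, 20.8% a CRE core, 7.15% the E-box, 13.6% a TATA box and 35.7% a GC box. A window was found for 9 of the 10 genes, Ptger1 being the exception. Only these 5 preset motifs were searched, so the shares are no test of any 1 window. The matches describe letters and not binding, which was not measured.

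On GRCm38.p6, Pla2g4a (chr1:149829618-149961290, minus strand) and Ptgs2 (chr1:150100031-150108234, plus strand) lie 138.74 kb apart with their starts facing each other and no protein-coding gene between them. The others lie alone, Ptgs1 at chr2:36216742-36258593, Ptger1 at chr8:83666644-83672756, Ptger2 at chr14:44988111-45003820, Ptger4 at chr15:5233399-5244187, Ptgir at chr7:16906490-16910905 and Tbxa2r at chr10:81328268-81335174. Ptger3 (chr3:157566821-157644758) and Ptgfr (chr3:151798610-151837528) share a chromosome.

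Values are normalized counts, which the authors obtained by multiplying the molecules counted in a sample by 1 factor from positive controls and housekeeping genes. Monocyte samples had factors of 0.554 to 1.13 and 162988 to 348248 counted molecules, Kupffer cell samples factors of 1.30 to 2.17 and 84401 to 145662 counted molecules. A gene under the highest negative control of its lane was listed at that background, which had not been multiplied and stood at 5 to 27 for monocytes and at 7 to 14 for Kupffer cells. Each gene has its own probe pair, so levels are compared between samples and not between genes. Of the markers of monocytes and macrophages on the panel, 8 of 9 were lower in Kupffer cells and 1 was higher, and Adgre1, Csf1r and Itgam, which define these cells, were not in the table. All 12 hepatocyte genes were higher in Kupffer cells, their summed level being 15474 to 45505 against 426 to 785 in monocytes, where 7 of them were at the background in every sample.

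Among the 10 genes, the cell types differed most in those of COX-1 and IP, both lower in Kupffer cells. Their log2 fold changes of -1.85 and -1.67 stand beside a median of -1.73 for the 9 monocyte and macrophage markers. The part of the cell mixture in these differences was not tested. Of the 10 genes, 5 were above the background in all 12 samples (Pla2g4a, Ptgs1, Ptgs2, Ptger2 and Ptger4), 3 in some (Ptger3, Ptgir and Tbxa2r) and Ptger1 and Ptgfr in none. With limma on log2(normalized count + 1) and an adjusted p under 0.05, Pla2g4a, Ptgs1 and Ptgir were lower in Kupffer cells and Ptger2 and Ptger4 higher, that is 5 of 10 against 56.5% of all 248 genes. The 2 higher stand beside 35.1% of all genes and the 3 lower beside 21.4%. The groups did not overlap in 3 of 10 genes against 41.5% of all, Ptger4 being higher in every Kupffer cell sample (25.8% of all genes were) and Ptgs1 and Ptgir lower (15.7%). The median log2 fold change of the 8 genes above the background in at least 1 sample was 0.03, against 0.05 over all genes without that filter. Over all 10 it was -0.45, with Ptger1 and Ptgfr entered as backgrounds. By the shares above, the group as a whole did not stand out from the panel.

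**Figure D1:**
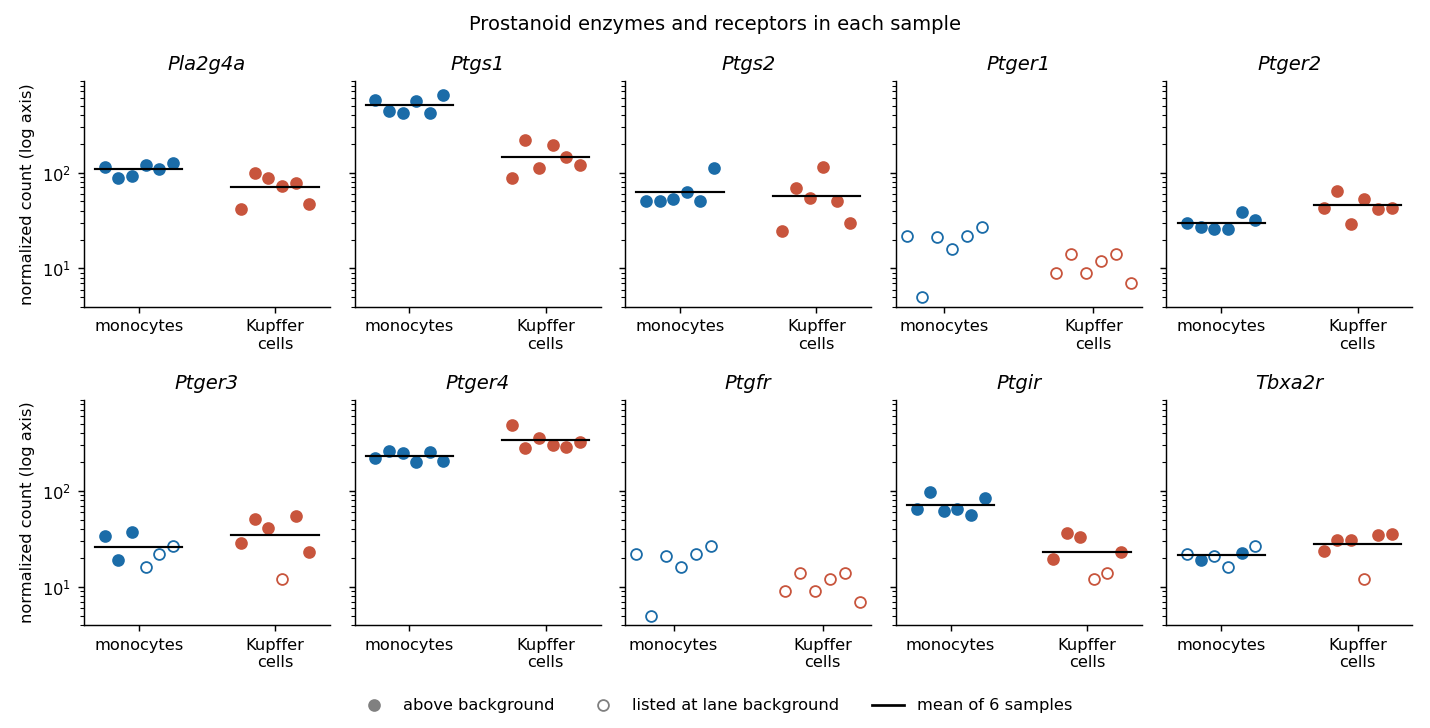
Normalized counts (log axis) of the 10 genes in the 6 monocyte (blue) and 6 Kupffer cell (red) samples, with open circles for values listed at the background of the lane and a line at the mean of the 6 samples, drawn where some value was above it. Ptgs1 and Ptgir of Kupffer cells lie wholly under those of monocytes, Ptger4 wholly above, and Ptger1 and Ptgfr show background only.

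Pla2g4a, the enzyme that frees the substrate, was lower in Kupffer cells. Its normalized count was 86.7 at the lowest, 111 at the median and 125 at the highest in monocytes, and 41.8, 75.2 and 98.7 in Kupffer cells. The groups overlapped, Kupffer cell samples 2 and 3 reaching the lower monocyte samples, while Kupffer cell samples 1 and 6 lay farthest below. The means were 108 ± 15.3 and 70.9 ± 22.6 (SD, n = 6), a log2 fold change of -0.65 (SE 0.21, 95% interval -1.11 to -0.19, adjusted p = 0.0185), or 1.57-fold lower. In RNA from sorted bulk cells, fewer cells that carry an mRNA and less of it per cell cannot be told apart.

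Ptgs1, the gene of COX-1, showed the largest difference of the 10. Its normalized count was 416 at the lowest, 498 at the median and 637 at the highest in monocytes, and 87.4, 131 and 219 in Kupffer cells. Every Kupffer cell sample was below every monocyte sample. The means were 507 ± 93.8 and 145 ± 51.0 (SD, n = 6), a log2 fold change of -1.85 (SE 0.22, 95% interval -2.33 to -1.37, adjusted p = 8.36e-06), or 3.59-fold lower with an interval of 2.58 to 5.01. Kupffer cell samples gave 56 to 120 counted molecules and monocyte samples 390 to 1150, so that counting error (a coefficient of variation of 11.8% and 3.77%) was well under the spread between samples (35.1% and 18.5%). COX-1 is also known as an abundant enzyme of platelets. The 1 platelet marker of the panel, Alox12, moved the same way, lying at 9 to 41.3 in Kupffer cells against 132 to 292 in monocytes. The part of platelet RNA in the difference was not tested.

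Ptgs2, the gene of COX-2, did not pass the test. Its normalized count was 50.3 at the lowest, 52.0 at the median and 112 at the highest in monocytes, and 24.8, 52.3 and 115 in Kupffer cells. The groups overlapped: Kupffer cell samples 1, 5 and 6 were below all monocyte samples, 5 of 6 monocyte samples lay between 50.3 and 62.0, and monocyte sample 6 and Kupffer cell sample 4 stood high at about the same level. The means were 63.2 ± 24.5 and 57.2 ± 32.7 (SD, n = 6), and the log2 fold change of -0.26 (SE 0.34, adjusted p = 0.502) had an interval of -0.99 to 0.47. The spread of Ptgs2 on the log2 scale was the 10th widest among the 160 genes above the background everywhere in monocytes and the 7th widest in Kupffer cells. That call depended on the scaling. In limma, Ptgs2 was lower in Kupffer cells with quantile normalization (-1.04, adjusted p = 0.0133) and with positive controls only (-1.62, adjusted p = 0.000223). It was also lower with Gusb left out of the housekeeping genes (-0.90, adjusted p = 0.0487). That setting scales to Cltc, Gapdh and Pgk1 alone, without Hprt and Tubb5, so it does not give the effect of Gusb by itself. It moved the median log2 difference of the 160 genes by -0.65, and positive controls only moved it by -1.39.

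In the ratio of 2 genes above the background in the same sample, the factor of the lane cancels but for the added 1, while a value listed at the background carries no factor. Ratios compare probe counts, so only their difference between cell types has a meaning. The log2 ratio of Ptgs2 to Ptgs1 ran from -3.47 to -2.49 in monocytes and from -1.96 to -0.75 in Kupffer cells. Every Kupffer cell sample had the higher ratio, with means of -3.03 ± 0.32 and -1.44 ± 0.47 (SD, n = 6), a difference of 1.59 or 3.01-fold (exact permutation test, two-sided, p = 0.00216, the smallest that 924 assignments allow, and 0.00361 after Benjamini-Hochberg adjustment over the 5 ratios tested). Relative to COX-1 mRNA, COX-2 mRNA was thus higher in Kupffer cells, while its own level did not pass the test on the deposited scale.

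The ratio of Pla2g4a to Ptgs1 was also higher in all Kupffer cell samples, at -1.02 ± 0.39 against -2.21 ± 0.15 (SD, n = 6) on the log2 scale, a difference of 1.19 (exact permutation p = 0.00216, adjusted 0.00361). The fall of Ptgs1 was therefore larger than that of Pla2g4a. The ratio of Pla2g4a to Ptgs2 differed by -0.40 (exact permutation p = 0.158, adjusted 0.198), with monocyte sample 6 and Kupffer cell sample 4 lowest in their groups. Without monocyte sample 6, the adjusted p of this ratio was 0.00812 by the same exact test.

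**Figure D2:**
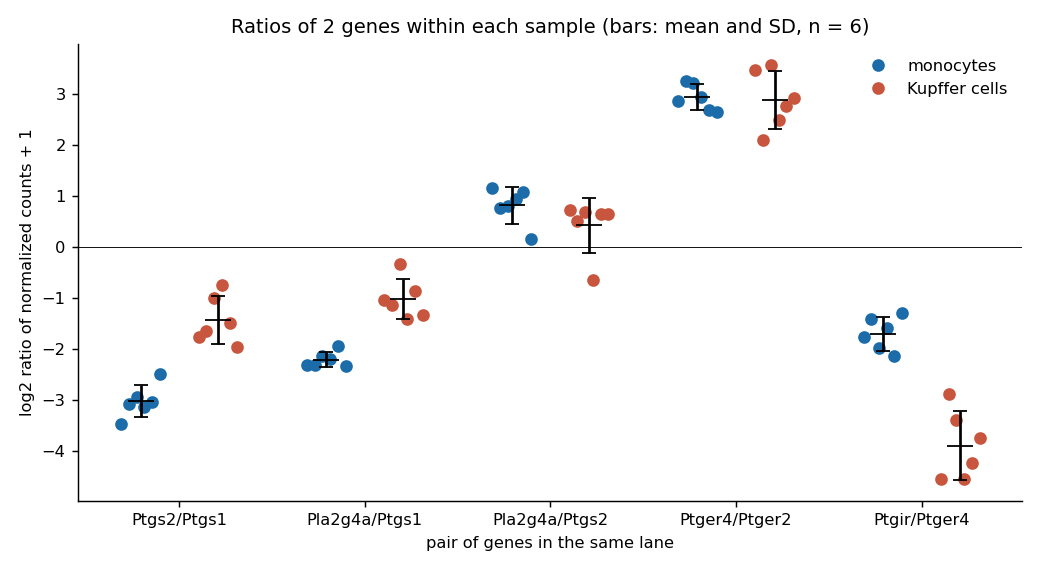
Log2 ratios of normalized counts + 1 of 2 genes in the same sample, for 6 monocyte (blue) and 6 Kupffer cell (red) samples, with the mean and SD. The groups are apart for Ptgs2/Ptgs1, Pla2g4a/Ptgs1 and Ptgir/Ptger4 and overlap for Pla2g4a/Ptgs2 and Ptger4/Ptger2.

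Among the receptors, 2 of 7 were higher in Kupffer cells by the scaling of the deposited values (35.1% of all genes were) and 1 was lower (21.4%). The other 4 did not pass the test, Ptger1 and Ptgfr among them being at the background in all 12 samples. Ptger4, the gene of EP4, was 201 at the lowest, 235 at the median and 265 at the highest in monocytes, and 278, 316 and 484 in Kupffer cells. The groups did not overlap, and Kupffer cell sample 1 stood above its group, the same sample being the lowest of its group in Pla2g4a, Ptgs1 and Ptgs2. The means of 232.5 ± 25.9 and 339 ± 76.8 (SD, n = 6) gave a log2 fold change of 0.52 (SE 0.15, 95% interval 0.20 to 0.85, adjusted p = 0.00965), or 1.44-fold higher.

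Ptger2, the gene of EP2, the other Gs-coupled receptor of prostaglandin E2, was 25.5 at the lowest, 28.5 at the median and 38.5 at the highest in monocytes, and 29.2, 42.7 and 64.0 in Kupffer cells. The groups overlapped through Kupffer cell sample 3, the lowest of its group, while the other 5 Kupffer cell samples were above all monocyte samples. The log2 fold change was 0.57 (SE 0.18, 95% interval 0.18 to 0.96, adjusted p = 0.0164), or 1.48-fold higher. Only 15 to 35 molecules were counted per Kupffer cell sample and 24 to 65 per monocyte sample, and counting error, at 20.9% and 15.5%, came close to the spread of 26.0% and 16.8%.

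The direction of Ptger2 and Ptger4 depended on the scaling between samples. Scaled to the median gene, both kept their direction and lost the call (Ptger4 0.34, adjusted p = 0.124; Ptger2 0.39, adjusted p = 0.0899). Scaled to Cltc, Gapdh and Pgk1, with Gusb left out, they were at -0.13 and -0.07 (adjusted p = 0.461 and 0.785). With positive controls only they were lower in Kupffer cells, at -0.86 and -0.78 (adjusted p = 0.00226 and 0.00649). Quantile normalization gave 0.07 for Ptger4 (adjusted p = 0.749) and -0.50 for Ptger2 (adjusted p = 0.0057). Of the housekeeping genes, Gusb was 933 ± 166 in monocytes and 324 ± 62.7 in Kupffer cells (SD, n = 6). Gapdh was 1704 ± 58.6 and 2971 ± 912, Cltc 2140 ± 131 and 2655 ± 198, and Pgk1 151 ± 16.0 and 289 ± 65.2. Each of the latter was higher in every Kupffer cell sample than in any monocyte sample. The ratio of Ptger4 to Ptger2, both above the background in all samples, was 2.93 ± 0.26 and 2.88 ± 0.56 on the log2 scale (difference -0.05, exact permutation p = 0.861, adjusted 0.861).

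T and NK cells are known to carry EP2 and EP4 as well. Of 7 T and NK cell genes in the table, 4 were higher in Kupffer cells and none lower, beside 35.1% and 21.4% of all genes. With positive controls only 1 was higher and 4 lower, beside 27 and 159 of all 248 genes. The summed level of the 7 was 3295 to 5061 in Kupffer cells against 1967 to 3504 in monocytes. Its largest terms were Ltb (mean 2685 against 2147) and Cd4 (644 against 524), which did not pass the test (limma, adjusted p = 0.149 and 0.166). Cd3e and Cd8a were not in the table. Their part in the levels of Ptger2 and Ptger4 was not tested.

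Ptgir, the gene of the prostacyclin receptor IP, was 56.3 at the lowest, 65.0 at the median and 97.9 at the highest in monocytes, and 12, 21.4 and 36.5 in Kupffer cells. Every Kupffer cell sample was below every monocyte sample, and Kupffer cell samples 4 and 5 were listed at the background. The log2 fold change was -1.67 (SE 0.26, 95% interval -2.24 to -1.11, adjusted p = 0.000105), or 3.19-fold lower. With the background multiplied by the factor of the lane it was -1.32, and with 1 floor common to all lanes -1.12. In the Kupffer cell samples above the background, 11 to 20 molecules were counted, against 87 to 152 per monocyte sample.

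Both IP and EP4 couple to Gs, and they moved apart within the samples. The log2 ratio of Ptgir to Ptger4 was -1.71 ± 0.33 in monocytes and -3.90 ± 0.67 in Kupffer cells (SD, n = 6), lower in all Kupffer cell samples, with a difference of -2.20 (exact permutation p = 0.00216, adjusted 0.00361). In Kupffer cell samples 4 and 5 this ratio sets an unmultiplied background of Ptgir against a multiplied Ptger4. With the background multiplied too, the difference was -1.85, and with positive controls only -1.80 (exact permutation test, adjusted p = 0.00361 in both).

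**Figure D3:**
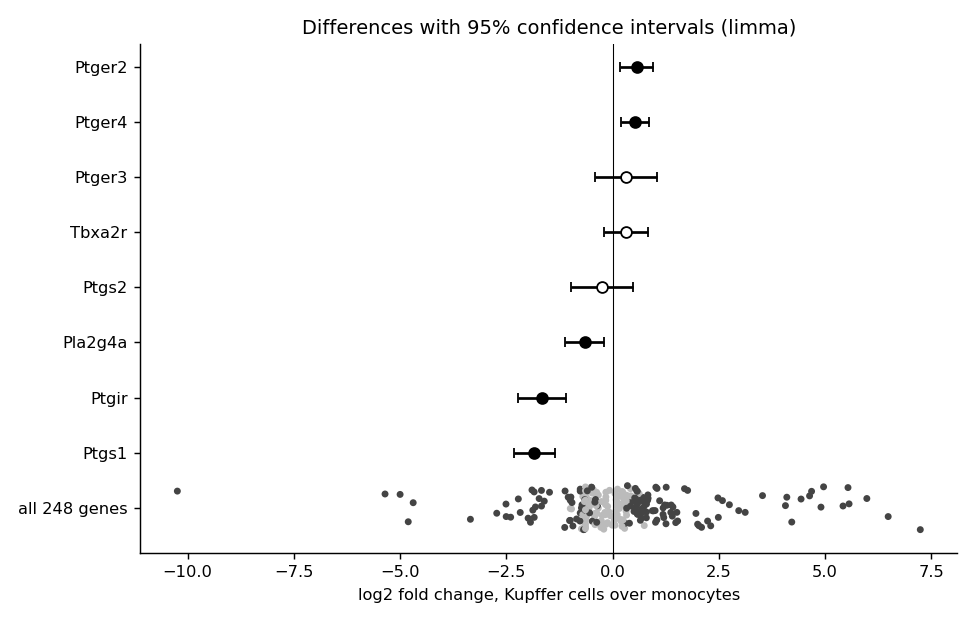
Log2 fold changes (Kupffer cells over monocytes, limma, deposited scaling) with 95% intervals for the 8 genes above the background in at least 1 sample, filled where the adjusted p was under 0.05, over the same value for all 248 genes (dark where it was). Ptgs1 (-1.85) and Ptgir (-1.67) lie to the left and Ptger2 (0.57) and Ptger4 (0.52) to the right. Under scalings that moved the whole panel down (Gusb left out, positive controls only), Ptger2 and Ptger4 fell below 0. Ptger2 also did so with quantile normalization.

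The remaining receptors were near the background. Ptger3, the gene of the Gi-coupled EP3, was 16 at the lowest, 24.5 at the median and 37.7 at the highest in monocytes with 3 of 6 samples at the background, and 12, 34.8 and 54.3 in Kupffer cells with 1 at it. The groups overlapped over most of their range, and the log2 fold change of 0.32 (SE 0.34, 95% interval -0.41 to 1.06, adjusted p = 0.409) did not pass the test. It passed with the background multiplied by the factor (0.86, adjusted p = 0.0274), and was -0.31 with Gusb left out (adjusted p = 0.487) and -0.47 with positive controls only (adjusted p = 0.162).

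Tbxa2r, the gene of the thromboxane receptor TP, was above the background in monocyte samples 2 and 5 only and in all Kupffer cell samples but sample 4. It was 16 at the lowest, 21.5 at the median and 27 at the highest in monocytes and 12, 31.1 and 35.9 in Kupffer cells, the highest monocyte value being a background. The log2 fold change was 0.32 (SE 0.24, 95% interval -0.20 to 0.84, adjusted p = 0.243). It passed with the background multiplied by the factor (0.91, adjusted p = 0.00069), with the mean negative control subtracted (1.00, adjusted p = 0.00417) and without Kupffer cell replicate 4 (0.54, adjusted p = 0.0115), but was -0.31 without Gusb (adjusted p = 0.333) and -0.42 with positive controls only (adjusted p = 0.0478).

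Ptger1 and Ptgfr, the genes of the Gq-coupled EP1 and FP, were listed at the background in all 12 samples. On the normalized scale this bounds them at 5.63 to 15.7 for monocytes and at 11.7 to 30.4 for Kupffer cells, so no fold is given. The panel also held Gpr44, an older symbol of Ptgdr2, which encodes a receptor of prostaglandin D2 and was looked up after the values were seen. It exceeded the background in monocyte sample 2 (6.75 over 5) and Kupffer cell sample 1 (13.1 over 9) only.

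**Figure D4:**
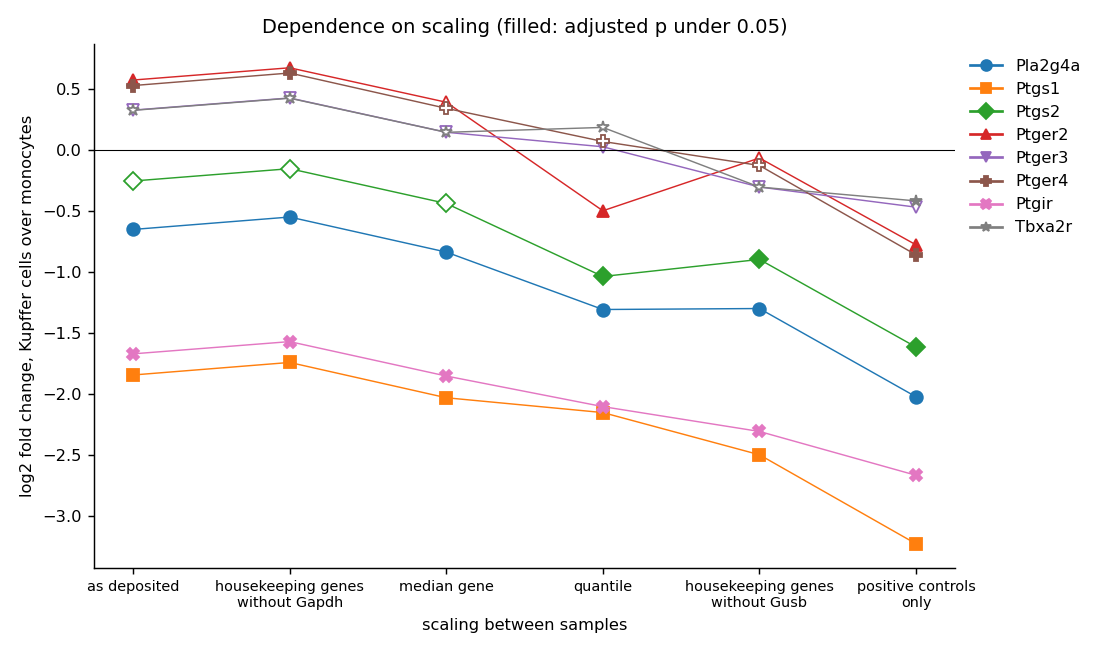
Log2 fold changes (Kupffer cells over monocytes) of 8 genes under 6 scalings between samples, filled where the adjusted p from limma was under 0.05; lines join the values of a gene. Ptgs1, Ptgir, Pla2g4a and Ptgs2 stay below 0 under all 6, while Ptger2 and Ptger4, higher as deposited, fall to -0.78 and -0.86 with positive controls only.

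The other genes of the pathway were counted by lists that follow the chain from activation to response. Their counts as deposited stand beside 35.1% of all 248 genes higher in Kupffer cells and 21.4% lower. The other scalings moved these shares too. With the median gene, 71 of all genes were higher and 98 lower, and with quantile normalization 63 and 69. With Gusb left out, 38 were higher and 135 lower, and with positive controls only 27 and 159. Of 6 kinases that act on cytosolic phospholipase A2, 3 were higher in Kupffer cells and none lower, among them Mapk8 (JNK1) by 0.57 on the log2 scale (adjusted p = 0.00564) and Mapk3 (ERK1) by 0.42 (adjusted p = 0.0253). Their median of 0.26 stands beside 0.05 for all genes. None of the 6 was higher with the median gene, quantile normalization, Gusb left out or positive controls only, and under the last all 6 were lower, as Pla2g4a was.

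Of 9 factors known at the Ptgs2 promoter, 2 were higher, 2 lower and 5 did not pass the test (median 0.09). The partners of AP-1 were higher, Fos at 14818 ± 3283 against 3804 ± 950 (log2 fold change 1.96, adjusted p = 1.07e-06) and Jun at 5146 ± 1285 against 1046 ± 353 (2.31, adjusted p = 8.75e-07), each as mean ± SD of 6 samples. Cebpb, whose protein binds C/EBP sites such as the palindrome shown in the Ptgs2 window, was lower at 1087 ± 323 against 2985 ± 534 (-1.48, adjusted p = 1.51e-05), as was Hif1a, the oxygen-regulated factor (-0.36, adjusted p = 0.0251; 0.119 without Gapdh). Fos, Jun and Cebpb kept these calls under all 6 scalings of the plot by scaling. Fos and Jun are also 2 of the 3 higher genes in a list of 5 that respond early to cell isolation. The summed level of that list, Fos and Jun included, was 14061 to 26921 against 5386 to 8569. With quantile normalization or with Gusb left out, 2 of the 5 were higher and 2 lower. With positive controls only, 2 were higher and 3 lower. The part of the isolation in these levels was not tested.

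Of 8 inducers of Ptgs2 and their receptors, 3 were higher, 3 lower and 2 did not pass the test (median -0.75). Il1r1, the signalling receptor of IL-1, rose by 4.07 on the log2 scale with 4 of 6 monocyte samples at the background, Ifng (interferon γ) by 3.53 and Tnf by 1.26 (adjusted p = 0.000118; -0.12 with positive controls only, adjusted p = 0.696). Tlr2 fell by 1.84, Tlr4, the receptor of bacterial lipopolysaccharide, by 1.00, and its partner Ly96 by 0.85. Il1a and Il1b, which encode IL-1, did not pass the test as deposited or without Gapdh, but were lower with the median gene (-1.18 and -0.84, adjusted p = 0.0341 and 0.0363), quantile normalization (-1.65 and -0.97), Gusb left out (-1.64 and -1.31) and positive controls only (-2.36 and -2.04). Ifng is also a T and NK cell marker, and Tlr4 and Ly96 are monocyte and macrophage markers.

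Downstream of the receptors, 9 of 11 G protein and second messenger genes did not pass the test and 2 were lower, Gnaq (the α subunit of Gq) by -0.48 (adjusted p = 0.00342) and Rhoa, a GTPase engaged by the thromboxane receptor, by -0.49 (adjusted p = 0.00326), with a median of -0.24. With positive controls only 10 of the 11 were lower, and with Gusb left out all 11. Gngt1, 1 of the 11, was listed at the background in every sample, so its call without Gusb reflects only scaled backgrounds. Gnas, the α subunit of Gs through which EP2, EP4 and IP act, was 2355 ± 234 in monocytes and 2434 ± 394 in Kupffer cells (SD, n = 6; log2 fold change 0.04, adjusted p = 0.803).

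The lipoxygenase branch, which draws on the same arachidonic acid, had 5 of 7 genes lower in Kupffer cells and 1 higher (median -1.93). The enzymes Alox15, Alox12 and Alox5 changed by -5.00, -3.35 and -2.51 on the log2 scale, and the leukotriene receptors Cysltr1 and Ltb4r1 by -1.93 and -0.77 (adjusted p = 0.00249 for the last), all lower under each of the 6 scalings. Cysltr2, the second receptor of cysteinyl leukotrienes, rose by 1.26 (adjusted p = 0.000571; -0.10 with positive controls only, adjusted p = 0.721). Ltb4r2 was at the background in 5 of 6 monocyte and 4 of 6 Kupffer cell samples.

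Within a cell type, the enzymes correlated with each other across samples and, negatively, with EP4. On log2 values centred in each sample on the mean of the 160 genes above the background everywhere and then on each cell type, Pearson's r over the 12 samples was 0.74 for Ptgs1 and Ptgs2, 0.64 for Pla2g4a and Ptgs2, and 0.59 for Ptgs1 and Pla2g4a. Ptger4 ran against them, with -0.80 for Pla2g4a, -0.75 for Ptgs1 and -0.64 for Ptgs2. These are descriptions without a test, of points that share the lane, its scaling and the cell mixture of the pool.

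The genes most like each in this measure were Mrc1 (0.90), C1qb (0.90) and C4a (0.87) for Ptgs1, Plcb1 (0.90), Tlr8 (0.88) and Ccr2 (0.86) for Ptgs2, and Cxcl2 (0.83), Tlr8 (0.82) and Cd86 (0.79) for Pla2g4a. For Ptger4 they included Ifit1 (0.93) and Ccl5 (0.92). For Ptger2, whose spread is close to counting error, the highest were lower, Ptk2 (0.65), Gnaq (0.58) and Stat2 (0.53).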

How the data were processed

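Per the labels, total RNA of each pool was hybridised to the nCounter Mouse Inflammation V2 panel. The deposited table holds a normalized signal: in nSolver, the authors multiplied the reporter counts of each lane by 1 factor from positive controls and 6 housekeeping genes (geometric means of Cltc, Pgk1, Gusb, Gapdh, Hprt and Tubb5), with the highest of 8 negative controls as background. Hprt and Tubb5 were not analysed here. The scaling without Gusb therefore used Cltc, Gapdh and Pgk1, and that without Gapdh used Cltc, Gusb and Pgk1. The factor was recovered by a search for the step that divides every value over the background to a whole number within 0.02. The factor is absent from values listed at the background, so no count model was used, and the precision rests on 6 samples per group and, for low genes, on the background. Nothing says that the pools shared no handling, so p-values measure the spread between these samples. Of 248 genes, 160 exceeded the background in each of the 12 samples and 13 in none. The highest correlation between 2 samples was 0.994, and no samples were identical.

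Differences were tested with limma 3.58.1 in R 4.3.3 on log2(value + 1), 6 against 6 samples, two-sided, with Benjamini-Hochberg adjustment over 248 genes and a threshold of 0.05. Folds are on this scale, which understates changes of low genes. Ratios were tested by exact permutation over 924 assignments, with scipy 1.17.1 and numpy 2.4.6 in Python 3.11.15; pandas 2.3.3 held the tables and matplotlib 3.10.9 drew the figures. The limma step was tested on simulated data. Named are the 10 genes, pathway genes past the threshold, and the 3 genes most like each gene above the background everywhere. Gnas, Gngt1, Il1a, Il1b and Ltb4r2 are named as pathway genes that did not pass, and Ltb and Cd4 as markers that did not. Values of 2 genes that this rule covers are not reported here. The genes and lists were chosen with earlier results of these data known. Alternatives tried were other pseudocounts, scalings and treatments of the background, a low-value filter, the permutation test, arithmetic means, a replicate block and each sample left out; 6 of them, on scaling and background, were chosen after seeing the data.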

Additional observations from a re-analysis of the deposited data

Results flagged for a closer look

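Of 11 sets of a gene and a cell type with all 6 samples above the background, 1 held a sample far from the others: Ptgs2 in monocyte sample 6, at 112.37 against 50.3 to 62.0 in the other 5, a gap of 0.813 of the range of the group. About 1 such set in 20 is expected by chance. The same sample had the highest Ptgs1 (637) and Pla2g4a (125) of the monocytes.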

How the results depend on the processing

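Ptgs1, Ptgir and Pla2g4a kept their direction under all 26 alternatives (-3.23 to -1.71 for Ptgs1 and -2.67 to -1.12 for Ptgir). Ptgs1 and Ptgir also kept the call wherever one was made, the ratio of arithmetic means having no test. Pla2g4a lost it only under the replicate block (-0.65, adjusted p = 0.0576 by limma). Scaling moved the median difference of the 160 genes above the background everywhere by -0.19 (median gene), 0.10 (without Gapdh), -0.65 (without Gusb) and -1.39 (positive controls only). With positive controls only, log2 fold changes were -1.62 for Ptgs2, -0.78 for Ptger2, -0.47 for Ptger3, -0.86 for Ptger4 and -0.42 for Tbxa2r, with 0 of the genes higher and 7 lower, and 27 of all genes higher and 159 lower. Without Gusb they were -0.90, -0.069, -0.31, -0.13 and -0.31, with 0 higher, and 38 of all genes higher and 135 lower. Quantile normalization gave -1.04 for Ptgs2, -0.50 for Ptger2 and 0.067 for Ptger4, with 0 higher and 5 lower. The median gene gave 0.39 for Ptger2 and 0.34 for Ptger4, with 0 higher and 98 of all genes lower. With the background multiplied, Ptger3 was 0.86 (adjusted p = 0.0274) and Tbxa2r 0.91, with 4 higher and 140 of all genes higher; with the mean negative control subtracted, Tbxa2r was 1.00. Beyond scaling and background, the cause was not tested.

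Leaving out each sample gave -0.76 to -0.52 for Pla2g4a, -1.98 to -1.71 for Ptgs1, -0.49 to -0.06 for Ptgs2, 0.47 to 0.69 for Ptger2, 0.17 to 0.59 for Ptger3, 0.42 to 0.58 for Ptger4, -1.82 to -1.52 for Ptgir and 0.24 to 0.54 for Tbxa2r, 2 to 3 of the genes higher, and 46 to 86 of all genes lower, the 86 without monocyte replicate 2. The ratio of Pla2g4a to Ptgs2 ran from -0.53 to -0.18, and that of Ptger4 to Ptger2 from -0.18 to 0.11, and was 0.047 with a pseudocount of 10. Same-numbered samples of both cell types had correlated deviations of -0.23 to 0.40, over 0.1 in 3 of 6 pairs, and 2 of 6 correlated best with their own number, so the numbers were not taken to pair them. Under the replicate block, 2 genes were lower, 83 of all genes higher and 49 lower. There the ratios 1.59 (Ptgs2 to Ptgs1), 1.19 (Pla2g4a to Ptgs1) and -2.20 (Ptgir to Ptger4) had an adjusted p of 0.0521 by an exact sign-flip test. Each was at the lowest p that this test allows with 6 pairs, before the adjustment over the 5 ratios. Low counts limit Ptger2, Ptgir, Ptger3 and Tbxa2r.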
